A study of Homo sapiens with 75 samples.

Results

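DHL6 is an established human cell line grown from a diffuse large B-cell lymphoma, and its state before treatment was set against that of 4 other such lines. The DHL6 group was every array whose labels give that line, the vehicle DMSO and 0 h, called the baseline here. It holds 3 of the 75 arrays of the series. The reference was the mean of the baseline means of DHL4, LY7, HBL1 and U2932, each also in DMSO at 0 h with 3 arrays, so 12 arrays in all. Later arrays of every line, taken after 6 and 24 h in R406, an inhibitor of the kinase SYK, or in DMSO, were used as samples that the baseline comparison had not touched. The dose of R406 and the number of cultures behind the replicate letters A, B and C are not given in the sources used here, so the p-values speak of array-to-array spread alone, which may be technical.

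Diffuse large B-cell lymphoma arises from mature B cells and is divided by cell of origin. DHL6, DHL4 and LY7 are usually counted to the germinal centre class, named after the site in lymph nodes where B cells mutate their antibody genes and are selected. HBL1 and U2932 usually go into the activated B-cell class, which is known for constant NF-kB activity. B cells live on signals of the B-cell receptor, which SYK passes on, and tumour lines are known to differ in how far they use it. Each group is 1 line from 1 tumour, so a difference of DHL6 is a difference of that line, and its class, its donor and its culture history cannot be told apart.

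The values name 19536 genes by Ensembl identifier, and the tables used here pair 0 of these identifiers with a gene symbol. The 10 lists of stress genes that were to be set against the range of the other lines, and the markers of B cells and of other cell types that were to check the label, are written as symbols and were not analysed here. What follows describes the genes as a whole, the 2 identifiers that lay highest and the 2 that lay lowest in DHL6, and the control probe sets of human RNAs, whose names say what they measure.

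The 3 DHL6 baseline arrays correlated at 0.997 to 0.998 with each other over the 11089 genes tested, and at 0.840 to 0.899 with arrays of the other lines. All 15 baseline arrays correlated best with an array of their own group. Their medians ran from 5.86 to 5.93 on the log2 scale, and no array was identical to another.

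Most genes differed between DHL6 and the average of the other lines at baseline, about as many up as down. By limma with Benjamini-Hochberg adjustment, 3893 genes were higher in DHL6 and 3904 lower at an adjusted p under 0.05, which is 70.3% of the genes tested (35.1% higher and 35.2% lower). The difference reached 2-fold for 1294 of them (11.7%). The same contrast made with each other line in the place of DHL6 called 7939 genes for DHL4, 7974 for LY7, 8163 for HBL1 and 7947 for U2932. Such calls hold for these 5 lines only. With each line mean taken as 1 replicate, limma called 6 genes (0.0541%), 5 higher and 1 lower in DHL6, and 541 had an unadjusted p under 0.05, with the spread of DHL6 taken to be that of the other lines. An exact permutation over 5 lines could not give a p below 0.2.

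Among single lines, DHL6 stood closest to DHL4. Genes are not independent replicates, and the correlation of line means across them was 0.899 with DHL4, 0.882 with U2932, 0.860 with LY7 and 0.842 with HBL1. Against single lines, limma called 65.3% of genes for DHL4, 68.6% for U2932, 69.8% for LY7 and 70.2% for HBL1. Against DHL4 alone, 1464 genes differed by 2-fold or more with an adjusted p under 0.05 by limma (13.2% of genes tested), 816 of them higher in DHL6. The number was 1633 against U2932 (14.7%), 1812 against LY7 (16.3%) and 1957 against HBL1 (17.6%). LY7, the other line of the germinal centre class, thus differed from DHL6 in more genes than U2932 did. The difference between these counts was not tested.

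A gene was counted as outside the range when the DHL6 mean lay above the highest or below the lowest of the other 4 line means. This chose 2191 genes above (19.8% of genes tested) and 1887 below (17.0%) by their baseline values, and their baseline values are therefore given without a test. The rule has no margin, and the genes nearest to the upper limit lay 4.93e-05 outside and 2.22e-05 inside it on the log2 scale, and those nearest to the lower limit 0.000127 outside and 1.53e-05 inside, so membership at the edge says little. All 3 DHL6 arrays lay above all 12 other arrays for 1379 genes (12.4%) and below them for 986 (8.89%). A distance of 2-fold or more to the nearest line was found for 131 genes above (1.18%) and 105 below (0.947%). These counts depended on the lines compared with, and were 242 and 238 without DHL4 and 205 and 162 without HBL1. The filter on low values, which kept genes with at least 1 baseline line mean above 5.89, let 123 genes pass through DHL6 alone. These had to lie above the range, and 35 of them are among the 131. Of the 105 genes far below the range, 56 had a DHL6 level under 5.89, where the size of a difference is uncertain.

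**Figure D1:**
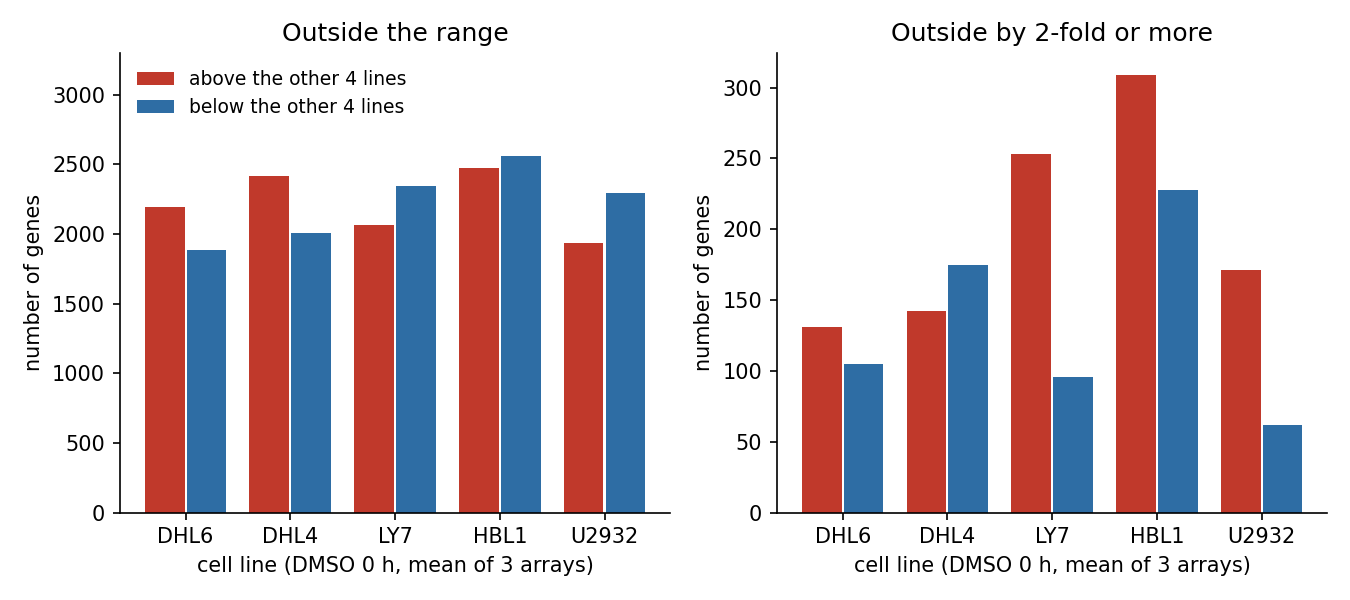
Number of genes whose mean in 1 line at DMSO 0 h lay above (red) or below (blue) the means of all 4 other lines, by line, with any distance (left) and with a distance of 2-fold or more (right). DHL6 had 131 and 105 genes in the right panel, against 309 and 228 in HBL1.

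The counts for DHL6 were on the low side among the 5 lines. Outside the range were 4078 genes in DHL6 (36.8%), against 4234 in U2932 (38.2%), 4409 in LY7 (39.8%), 4426 in DHL4 (39.9%) and 5031 in HBL1 (45.4%). By 2-fold or more, 236 genes were outside in DHL6 (2.13%), against 233 in U2932 (2.10%), 317 in DHL4 (2.86%), 349 in LY7 (3.15%) and 537 in HBL1 (4.84%). Genes with all 3 arrays of a line above all others numbered 1379 in DHL6, second to 1705 in HBL1, and 1231 in U2932 at the lowest. Those with all 3 below numbered 986 in DHL6, against 1063 in U2932 to 1514 in HBL1. The spread over genes of the difference from the other lines was 0.743 (SD, log2) for DHL6, between 0.710 for U2932 and 0.915 for HBL1. The widest distance below the range was 5.79 in DHL6, between 4.94 in LY7 and 7.13 in HBL1. The widest single distance above the range was nonetheless found in DHL6, at 9.09, against 5.97 in LY7 to 7.64 in HBL1.

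That distance belonged to ENSG00000154438. Its log2 levels in the DHL6 baseline arrays were 12.14, 12.23 and 11.70, against 2.54 to 3.14 with a median of 2.83 in the 12 arrays of the other lines. The next was ENSG00000137285, with 13.17, 13.02 and 12.86 in DHL6, against 3.80 to 4.72 and a median of 4.08 in the other lines. Both identifiers were bright in all 3 DHL6 arrays and below the filter level of 5.89 in each array of the other lines, and the groups were far from overlapping. Levels near 3 lie close to the lowest value of the table, 2.17, so the size of both differences is uncertain and rests on the dim side.

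ENSG00000158234 was farthest below the range, with 3.29, 3.20 and 3.42 in DHL6, against 9.02 to 11.12 and a median of 10.04 in the other lines. The other lines themselves fell apart for this gene, with means of 11.07 in U2932 and 10.96 in LY7, but 9.20 in DHL4 and 9.09 in HBL1. ENSG00000172183 measured 5.79, 5.47 and 5.48 in DHL6, against 10.28 to 10.51 and a median of 10.38 elsewhere. Here the 12 arrays of the other lines were nearly level, and DHL6 alone was low. All 4 were chosen for these distances, so no test is given at baseline.

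**Figure D2:**
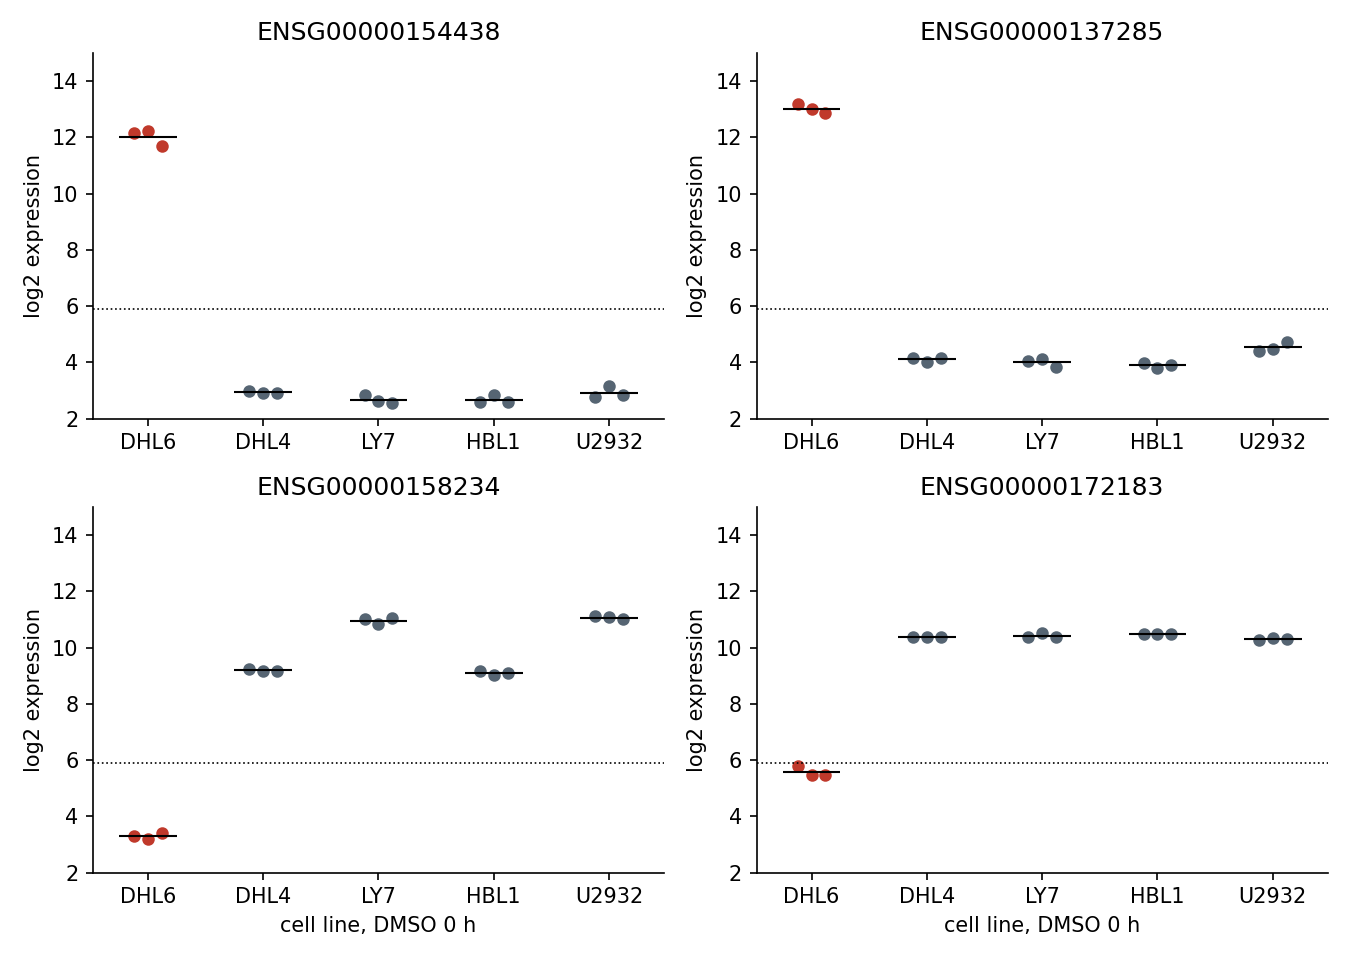
Log2 expression of 4 genes in each baseline array (points, 3 per line) of DHL6 (red) and the other lines (grey), with line means (bars) and the filter level of 5.89 (dotted). The DHL6 points lie between 11.70 and 13.17 in the upper panels and between 3.20 and 5.79 in the lower ones, apart from every other array.

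The later arrays, which took no part in choosing the genes, showed whether the baseline profile of DHL6 lasted in culture. A separate limma fit on the 60 arrays after 0 h called 4000 genes higher (36.1%) and 3972 lower (35.8%) in DHL6 than the other lines in DMSO at 6 h, together 71.9%, and 3923 higher (35.4%) and 4050 lower (36.5%) at 24 h, again 71.9%. Of the 2191 genes above the range at baseline, 1872 (85.4%) were called higher at 6 h and 16 lower, and 1854 (84.6%) higher at 24 h and 17 lower. Of the 1887 genes below it, 1616 (85.6%) were called lower at 6 h and 1668 (88.4%) at 24 h, with 7 and 3 called higher. All 131 genes that were 2-fold above and all 105 that were 2-fold below were called in the same direction at both times. The 35 that passed the filter through DHL6 alone had to be high in DHL6 at baseline, and without them the count was 96 of 96 at both times. Of all genes above the range, 1769 of 2068 (85.5%) were called higher at 6 h and 1754 (84.8%) at 24 h without such genes. For the full groups of 131 and 105, the median log2 difference between DHL6 and the other lines was 2.05 and -2.15 at 6 h and 2.19 and -2.01 at 24 h, while the median over all genes tested was 0.01 at 6 h and -0.02 at 24 h.

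The place outside the range was kept by fewer genes in R406 than in DMSO, a difference that was not tested. In DMSO at 24 h the DHL6 mean was still above all other lines for 1658 of the 2191 genes (75.7%), which were 79.0% of all genes above at that time (18.9% of genes tested were above). It was still below for 1410 of the 1887 (74.7%), or 65.2% of all those below (19.5% of genes tested were below). In R406 at 24 h the numbers were 1197 (54.6%) and 957 (50.7%), beside 16.2% above and 14.0% below of genes tested. For genes 2-fold outside, 130 of 131 and 105 of 105 remained outside in DMSO at 24 h, and 117 and 100 in R406 at 24 h. The counts above the range include the 123 genes that passed the filter through DHL6 alone, 35 of them among the 131. Those had to lie above the range at baseline, and the places kept were not counted without them.

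The 4 genes kept their places outside the other lines in DMSO. ENSG00000154438 had 11.38, 11.66 and 11.47 in DHL6 at 6 h and 11.75, 12.31 and 12.32 at 24 h, while the other lines did not exceed 3.22. ENSG00000137285 had 12.86, 13.05 and 12.86 in DHL6 at 6 h and 12.88, 13.14 and 13.25 at 24 h, while the other lines did not exceed 4.87. Both passed the filter through DHL6 alone and were dim in the other lines, so the levels are given without a fold. ENSG00000158234 had 3.71, 3.84 and 3.05 in DHL6 at 6 h, against 9.18 to 11.24 in the other lines, and 3.25, 3.17 and 2.72 at 24 h, against 9.05 to 11.17. Here DHL6 was on the dim side, and no fold is given either. ENSG00000172183 had 5.30 to 5.72 in DHL6, also below the filter level, so the size of its difference is uncertain. It differed from the other lines by -4.72 ± 0.05 (SE, log2) at 6 h (limma adjusted p = 2.92e-50). At 24 h the difference was -4.68 ± 0.05 (limma adjusted p = 4.87e-50). These errors and p-values speak of array-to-array spread alone, not of spread between lines, and the gene was chosen for its baseline distance.

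**Figure D3:**
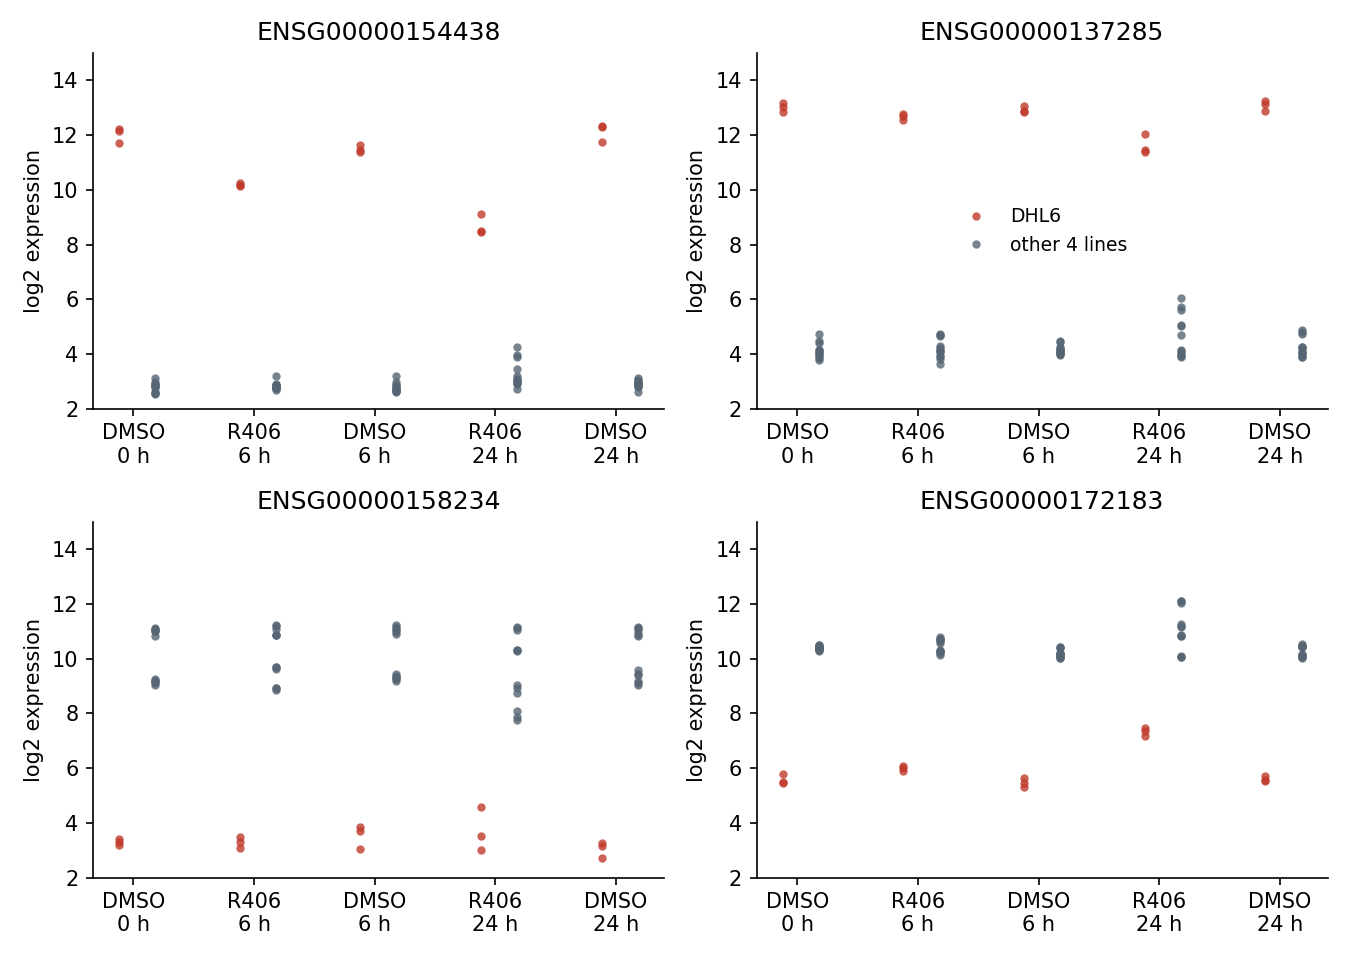
Log2 expression of the 4 genes in every array of DHL6 (red) and of the other 4 lines (grey) at DMSO 0 h and in R406 and DMSO at 6 and 24 h. ENSG00000154438 falls to 8.45 to 9.13 in DHL6 in R406 at 24 h, against 11.75 to 12.32 in DMSO, and ENSG00000172183 rises to 7.17 to 7.45, against 5.54 to 5.72.

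Under R406 several of the extreme levels of DHL6 moved towards those of the other lines. ENSG00000154438 had 8.50, 9.13 and 8.45 in R406 at 24 h, against 11.75, 12.31 and 12.32 in DMSO, a log2 change of -3.43 ± 0.13 (SE, limma adjusted p = 8.29e-26), and its change at 6 h was -1.31 ± 0.13 (3.22e-11). ENSG00000137285 fell by 1.47 ± 0.13 at 24 h (limma adjusted p = 2.76e-13). Its 6 h value of -0.24 missed the threshold (adjusted p = 0.139), but limma with array weights called it (-0.32, adjusted p = 0.00912).

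ENSG00000172183 measured 7.36, 7.45 and 7.17 in R406 at 24 h, against 5.55, 5.72 and 5.54 in DMSO. It rose by 1.72 ± 0.06 at 24 h (limma adjusted p = 5.20e-28) and by 0.52 ± 0.06 at 6 h (4.10e-10). At 24 h this gene was also higher in R406 than in DMSO in DHL4 (12.08 against 10.10), HBL1 (11.20 against 10.46) and U2932 (10.84 against 10.47). In LY7 it was not (10.06 against 10.09). ENSG00000158234 had 3.02, 3.53 and 4.58 in R406 at 24 h, against 3.25, 3.17 and 2.72 in DMSO. Its change of 0.66 ± 0.18 (adjusted p = 0.00151) rested on replicate C in R406, since it was 0.23 without that array (adjusted p = 0.162). At 6 h the value was -0.25 (adjusted p = 0.292). Array weights gave -0.38 (adjusted p = 0.014), and a fit without DMSO replicate C gave -0.49 (adjusted p = 0.0308).

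The genes far above the range were also described as a group by their response to R406, a measure from arrays that had not chosen them. At 24 h limma called 82 of the 131 lower in R406 than in DMSO (62.6%) and 22 higher (16.8%), where 37.3% of all genes tested were called lower and 24.8% higher, together 62.1%. Their median log2 change was -0.41, against -0.04 over all genes, and 24 of them fell by 2-fold or more. Without the 35 genes that passed the filter through DHL6 alone, 61 of 96 were called lower (63.5%) and 18 higher (18.8%), with a median of -0.38 and 11 down by 2-fold or more. At 6 h, 48 were called lower (36.6%) and 33 higher (25.2%), beside 20.7% lower and 20.7% higher of all genes, together 41.3%. The share called lower at 24 h was 64.0% with cyclic loess and 64.4% with array medians subtracted, while all genes had 31.3% lower and 27.1% higher with the first and 44.2% lower and 17.2% higher with the second. In the response of DHL6 minus the mean response of the other lines, 86 of the 131 were lower (65.6%) and 11 higher at 24 h, where 22.9% of all genes were lower and 18.4% higher, together 41.3%. At 6 h, 52 were lower and 11 higher, beside 11.7% and 9.98% of all genes, together 21.7%. Without the 35 genes, 59 of 96 were lower (61.5%) and 8 higher at 24 h, and 36 lower and 4 higher at 6 h. The 131 genes were chosen as high in DHL6, with a median baseline level of 8.87, against 6.19 in the other lines. Without the 35 genes these medians were 9.43 and 6.91. The other lines had less room to fall, so a lower response in DHL6 was partly fixed by the choice. The test cannot separate that part.

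On the deposited scale, the 105 genes far below the range were called higher in R406 more often than lower. At 6 h, 39 were called higher (37.1%) and 17 lower (16.2%), beside 20.7% higher and 20.7% lower of all genes, with a median change of 0.03 against -0.02 over all genes. At 24 h, 41 were called higher (39.0%) and 32 lower (30.5%), beside 24.8% higher and 37.3% lower of all genes, with a median of 0.05 against -0.04. With array medians subtracted, 33 of 103 such genes were called higher at 24 h and 33 lower (32.0% each). Of all genes, 17.2% were then higher and 44.2% lower. The median at 24 h was -0.03 on that scale, against -0.11 over all genes, so by median the group lay above all genes on both scales. In the response of DHL6 minus that of the other lines, 32 of the 105 were higher (30.5%) and 17 lower (16.2%) at 6 h. Of all genes, 9.98% were higher and 11.7% lower. At 24 h, 41 were higher (39.0%) and 23 lower (21.9%), beside 18.4% and 22.9% of all genes, so the share lower was near that of all genes. For 56 of the 105 genes the DHL6 baseline level was under the filter level, where changes are uncertain in size. The 105 genes were chosen as low in DHL6, with a median baseline level of 5.80, against 8.56 in the other lines. DHL6 had less room to fall, so a difference in response was partly fixed by the choice. A sign of RNA quality, the signal at the 3-prime end of beta-actin over that at its 5-prime end, was higher in DHL6 at baseline by 0.21 on the log2 scale (limma adjusted p = 0.00159). Without DHL4 it no longer passed (0.09, adjusted p = 0.122), and U2932 had a higher mean (1.53, against 1.36 in DHL6). The same measure of GAPDH did not differ beyond the threshold (adjusted p = 0.913). The part of RNA quality in these results was not tested.

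**Figure D4:**
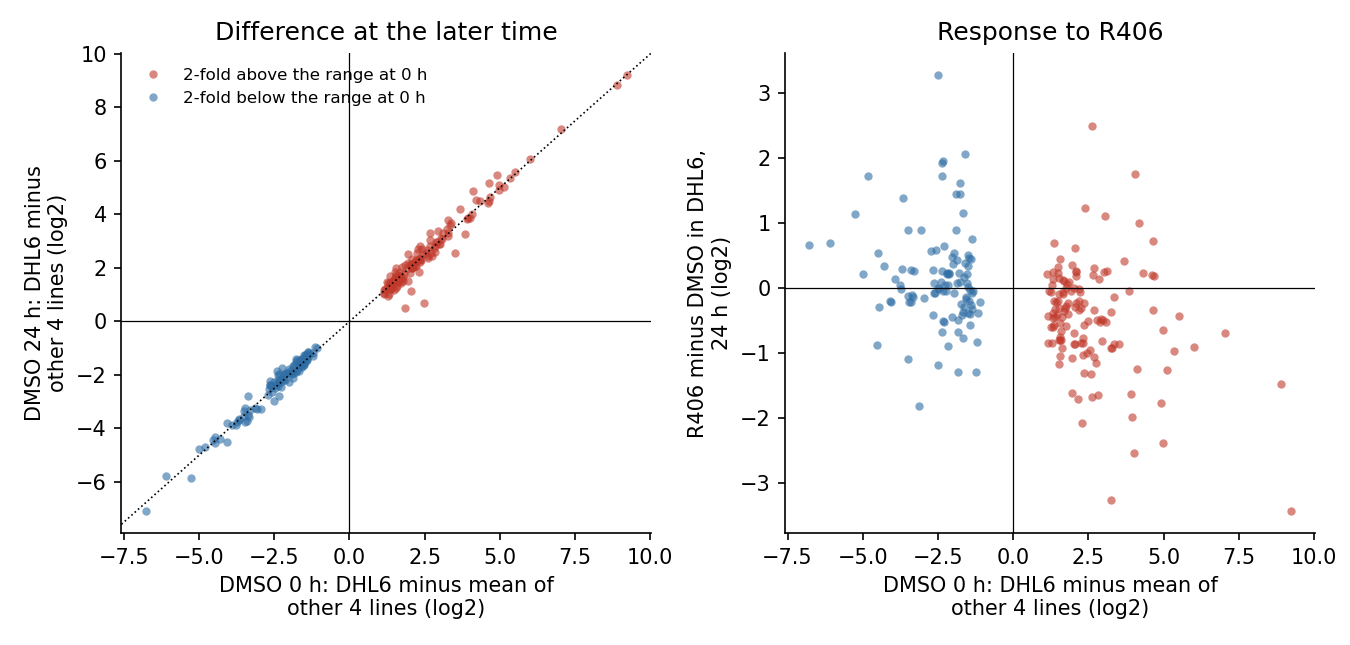
The 131 genes that were 2-fold above (red) and the 105 that were 2-fold below (blue) the range at baseline, with the log2 difference between DHL6 and the mean of the other lines in DMSO at 0 h on the horizontal axes. The vertical axes give the same difference in DMSO at 24 h (left, dotted line for equality) and the log2 change of DHL6 in R406 against DMSO at 24 h (right), where the medians of the groups are -0.41 and 0.05.

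Control probe sets of abundant human RNAs were compared in the same way, borrowing the variance prior from the genes and adjusting over 19 measures. Some probe sets of ribosomal RNA, the bulk of a cell's RNA, were among the higher ones. Whether their signal follows the amount of this RNA in the cells was not tested. The middle probe set of 18S, the RNA of the small ribosomal subunit, had 11.54, 11.64 and 11.56 in DHL6, against 10.94 to 11.39 and a median of 11.17 in the other lines. All DHL6 arrays lay above all others, by 0.41 ± 0.06 (SE) on average (limma adjusted p = 6.61e-05). The 3-prime probe set of 18S was higher by 0.54 ± 0.05 (8.66e-07), with DHL6 inside the range, and the 5-prime one did not pass (0.04, adjusted p = 0.551).

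For 28S, the RNA of the large subunit, the 5-prime probe set gave 12.40, 12.46 and 12.46 in DHL6, against 10.89 to 12.77 and a median of 11.73 in the other lines. It was higher by 0.68 ± 0.03 (limma adjusted p = 5.89e-10), and only LY7 had a higher mean. Its middle probe set was higher by 0.50 ± 0.04 (2.62e-08), also second to LY7. The 3-prime one, at the dim end with 5.75 in DHL6 and 5.65 in the other lines, did not pass (adjusted p = 0.079), though it did without the line DHL4 (0.16, adjusted p = 0.00866) and without DHL4 replicate B (0.11, adjusted p = 0.0367).

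GAPDH, a glycolytic enzyme, was lower in DHL6 than in any other line by mean, and by little. Its middle probe set had 14.05, 14.05 and 14.06 in DHL6, against 14.09 to 14.29 in the other lines, a difference of -0.14 ± 0.02 (limma adjusted p = 0.000148). The 5-prime and 3-prime probe sets differed by -0.11 (adjusted p = 0.00159) and -0.10 (0.0029), and both calls were lost with cyclic loess (0.0928 and 0.126). All 3 lie close to the highest value of the table, 14.76. The Alu probe set, which reads a repeat element found throughout the genome, lay at 14.74, 14.74 and 14.75 in DHL6, against 14.70 to 14.74 in the other lines, at the ceiling of the table, so no difference is read from it.

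Beta-actin, which builds the filaments of the cytoskeleton, had no direction of its own in DHL6. Its middle probe set averaged 13.01 ± 0.028 (SD, n = 3) in DHL6, against 12.36 in U2932, 12.56 in HBL1, 13.14 in LY7 and 13.41 in DHL4. The difference from the mean of these was 0.14 (limma adjusted p = 0.000483), and -0.27 against DHL4 and LY7 only (3.43e-06). The 3-prime probe set gave 0.15 (0.000391) and -0.12 (0.00442) in the same comparisons. Without HBL1 the middle probe set no longer passed (0.04, adjusted p = 0.297), and without U2932 neither it (-0.03, adjusted p = 0.391) nor the 3-prime one did (0.03, adjusted p = 0.451). The 5-prime one did not pass (-0.07, adjusted p = 0.233), but was -0.61 against DHL4 and LY7 only (2.12e-07) and 0.17 without DHL4 (0.00722), -0.18 without HBL1 (0.00644) and -0.32 without U2932 (3.43e-05). The log2 gap of its 3-prime over its 5-prime signal was 1.42, 1.40 and 1.24 in DHL6, against 0.722 to 1.64 in the other lines, and higher by 0.21 (adjusted p = 0.00159). Without DHL4 it no longer passed (0.09, adjusted p = 0.122). That of GAPDH did not differ beyond the threshold (adjusted p = 0.913).

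**Figure D5:**
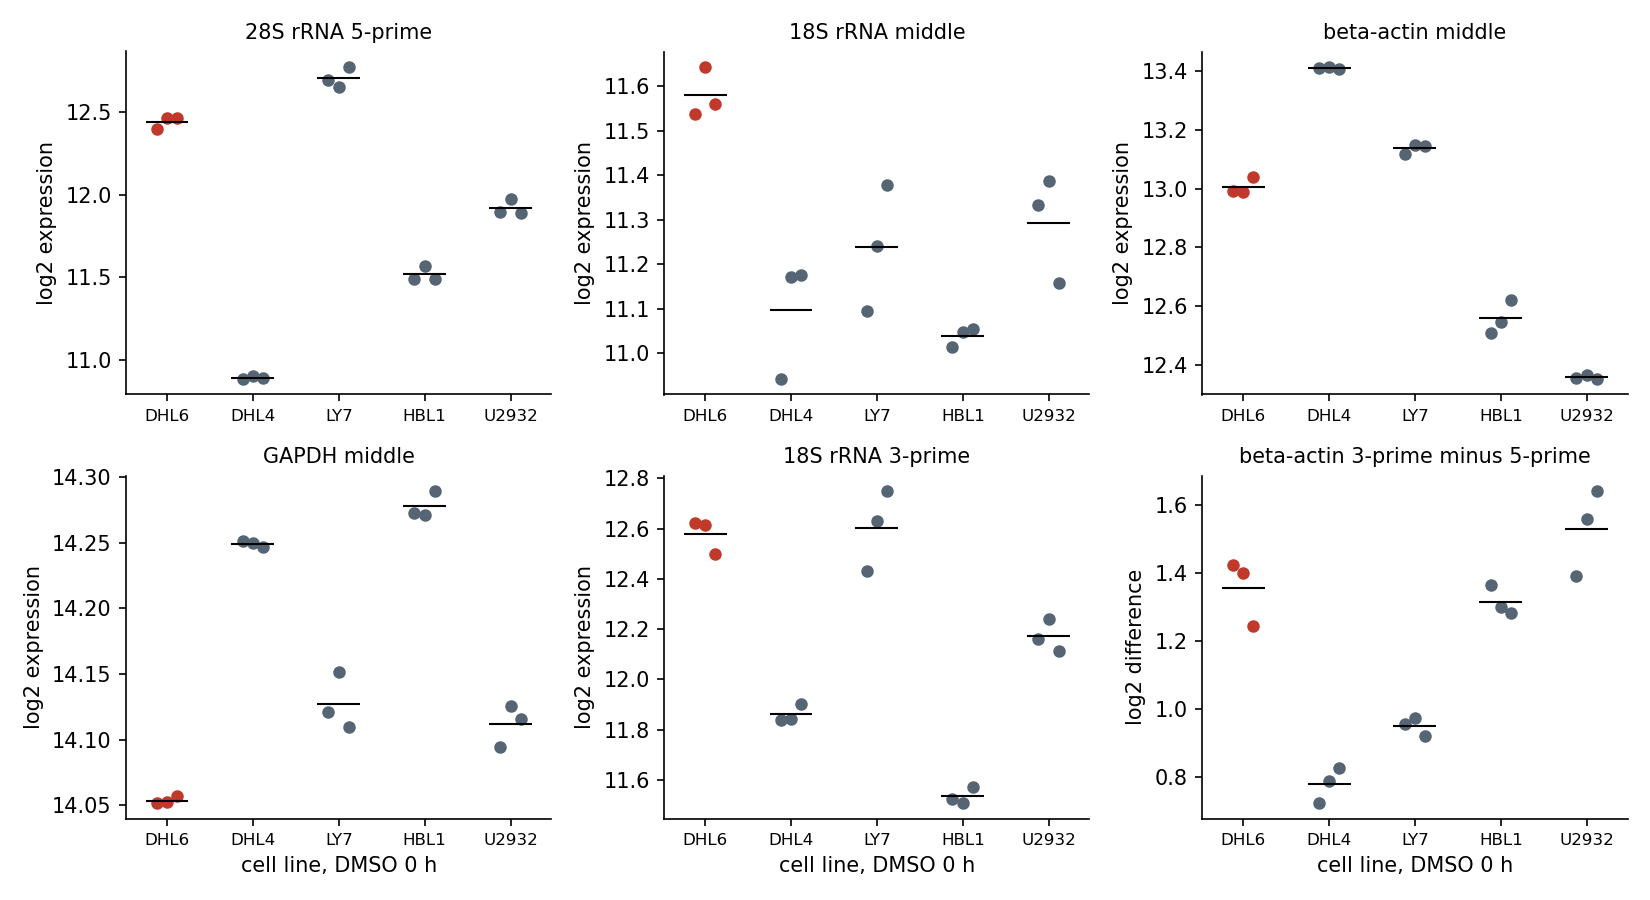
Log2 expression of 5 control probe sets, and the log2 gap of the 3-prime over the 5-prime signal of beta-actin, in each baseline array (points) of DHL6 (red) and the other lines (grey), with line means (bars). The vertical axes differ in range and do not start at 0. DHL6 lies apart from every other array for the middle probe sets of 18S (11.54 to 11.64) and GAPDH (14.05 to 14.06).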

How the data were processed

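The authors deposited log2 values per gene from Affymetrix HT HG-U133 Plus arrays, and the submitters' processing notes name RMA as the method. It subtracts background, gives each array the same distribution and combines probes into 1 value, so a shift of most transcripts in 1 line is not visible. The version, the genome build and the probe set definition are not given in the sources used here. Of the 19598 probe sets, 62 are controls. Groups came from the labels. Genes with a highest baseline line mean above 5.89, the median of all values, were kept (11089, with 8447 removed). limma 3.58.1 in R 4.3.3 fitted 1 mean per group to the 15 baseline arrays (10 residual degrees of freedom) and separately to the 60 later arrays (40 residual degrees of freedom), with eBayes, two-sided tests and Benjamini-Hochberg adjustment at 0.05 over all genes kept. The fit was tested on simulated data. The number of arrays limits the precision. The comparisons and lists were chosen with earlier results of these data known. The rule for named genes takes those with the widest distance to the nearest line, and was reduced to 2 in each direction because identifiers are not paired with symbols. Its exclusion of sex-linked genes needs symbols and was not applied. Some of the control measures are not reported here.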

Additional observations from a re-analysis of the deposited data

Results flagged for a closer look

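For all 4 genes the response to R406 differed between DHL6 and the mean of the other 4 lines by limma's test of the difference itself, which is why they are listed here. For ENSG00000154438 the log2 response of DHL6 minus that of the other lines was -1.35 at 6 h (adjusted p = 1.14e-09) and -3.82 at 24 h (6.10e-25). In DHL4 it measured 4.05 in R406 at 24 h, against 2.87 in DMSO. For ENSG00000137285 the value was -1.91 at 24 h (adjusted p = 1.05e-14), and at 6 h -0.27 did not pass (0.207) except with array weights (-0.34, adjusted p = 0.0252). DHL4 had 5.80 in R406 at 24 h, against 4.17 in DMSO. For ENSG00000158234 it was 1.26 at 24 h (adjusted p = 1.66e-06), with DHL4 at 7.89 in R406, against 9.47 in DMSO. The change of 0.66 in DHL6 itself rested on replicate C in R406, and was 0.23 without that array. For ENSG00000172183 the difference in response was 0.25 at 6 h (adjusted p = 0.00328) and 0.96 at 24 h (2.03e-16). The 6 h call was lost without DMSO replicate A of DHL6 (0.17, adjusted p = 0.0674). At 24 h DHL4 had 12.08 in R406, against 10.10 in DMSO, and HBL1 had 11.20 against 10.46. U2932 had 10.84 against 10.47, and LY7 had 10.06 against 10.09. The rise was thus not particular to DHL6, and 0.96 is a difference from an average of unlike lines. One side of each comparison lies below the filter level of 5.89 in DMSO, where changes are uncertain in size. The other lines had little room to fall for ENSG00000154438 and ENSG00000137285, and DHL6 had little for ENSG00000158234. For these genes a difference in response was partly fixed by their choice, and the test cannot separate that part. Beside the 4 genes, 41.3% of all genes differed in response at 24 h.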

How the results depend on the processing

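The number of genes called at baseline stayed within 1.5 times of 7797 except with the lines as replicates (6). The number outside the range, 4078 of 11089 genes tested, became 6937 of 19536 with no filter. It was 2358 with the filter raised to 7.88, the upper quartile of the table, which kept fewer genes. Against DHL4 and LY7 only it was 7325. The 131 genes 2-fold above and 105 below became 242 and 238 without DHL4, 205 and 162 without HBL1, and 364 and 284 against DHL4 and LY7 only. The 82 of 131 above that were called lower by R406 at 24 h became 156 of 242, 130 of 205 and 211 of 364 with these choices. These counts grew along with the sets. The stricter filter also gave 5198 calls in DMSO at 6 h and 5139 at 24 h, among the fewer genes it kept. Reversed values were the median R406 response at 24 h of genes far below the range with array medians subtracted (-0.026), and beta-actin: the middle probe set against DHL4 and LY7 only (-0.268) and without U2932 (-0.029), the 3-prime one against DHL4 and LY7 only (-0.118) and the 5-prime one without DHL4 (0.167). With the replicate letter as a replicate block, 7895 genes were called at baseline and no call on a named gene or control changed. Same-lettered arrays of different lines deviated together weakly, with correlations from -0.11 to 0.43 and a median of 0.06. Arrays with different letters had -0.36 to 0.27 and a median of -0.02. With 3 arrays per group this cannot settle whether the letters pair the samples, and the main fits used no pairing. Alternatives were chosen with earlier results known, and the leave-one-out of R406 arrays, the repeats for controls and the counts without genes that passed the filter through DHL6 alone were added after seeing the data. Differences of dim probe sets are the least certain.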
